A study of Mus musculus with 6 samples.

Results

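The ubiquitin-conjugating E2 enzymes were taken as all genes whose symbol begins with Ube2, which gave 38 of the 24532 genes in the deposited table. Of these, 34 passed a filter on low counts and were tested among 14109 genes. The name also takes in Ube2cbp, which encodes an E2-binding protein and not an E2, and Ube2d-ps, a pseudogene of the Ube2d family that RefSeq lists as a long non-coding RNA. Poly(A)-selected RNA was sequenced from whole gastrocnemius, the large calf muscle, of 12-week-old C57BL/6 mice. In 3 knockout mice both the floxed USP21 alleles and Ckmm-Cre were present, and 3 control mice had the floxed USP21 alleles and are entered as litter. Ckmm-Cre is driven by the muscle creatine kinase promoter, which is active in muscle fibres, so other cells of the tissue are left with their floxed alleles. Usp21 encodes a protease that removes ubiquitin from proteins, and the series asks what its loss does to the muscle transcriptome.

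Ubiquitin is passed from an activating enzyme (E1) to the active-site cysteine of an E2 and from there, with a ligase (E3), to a target protein. The E2 decides much of which chain is built, and a few E2s carry ubiquitin-like proteins instead, such as SUMO, NEDD8 and ISG15. In skeletal muscle the pathway is known for the turnover of myofibrillar proteins during wasting, and Ube2b is among the E2s studied there.

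Total counts were 53906493 to 65425324 in knockout libraries and 48658436 to 67332846 in control libraries. Usp21 itself was 9.08, 7.19 and 7.47 CPM (counts relative to library size, scaled by TMM factors) in the knockout libraries and 19.3, 19.3 and 19.2 CPM in the control libraries, a log2 fold change of -1.28 (SE 0.11; edgeR adjusted p = 0.0355). The groups did not overlap, but the adjusted p was above 0.05 on FPKM scales (limma, 0.0552 and 0.0657), with a replicate block (edgeR, 0.20) and without knockout library 2 or any 1 control library (edgeR, 0.0944 to 0.186). The 10 skeletal muscle fibre markers, all detected, summed to 181360 to 216056 CPM in knockout libraries and 157112 to 202200 CPM in control libraries. A summed level of slow-fibre markers set 1 library apart, with 787 to 1793 CPM in the knockout libraries and in control libraries 1469, 1427 and 179 CPM. The 9 fibroblast markers were all above 0 in log2 fold change (median 0.26) and summed to 2600 to 3105 CPM in knockout libraries and 1724 to 2615 CPM in control libraries. Other cell types were tilted too. Of 12 macrophage and leukocyte markers, 11 were above 0 and 1 below (median 0.39). Of 7 endothelial markers, 1 was above 0 and 6 below (median -0.14). In whole muscle, fewer cells of a type and less RNA per cell cannot be told apart, and the part of these markers in the values below was not tested.

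The Ube2 message of this muscle was dominated by a few genes. FPKM, which divides reads by gene length and library size, allows genes to be compared with each other, and all levels in this paragraph are FPKM as deposited. Ube2b, a mammalian homolog of yeast Rad6 that acts on histone H2B and on N-degron substrates, led with 224, 219 and 215 FPKM in knockout libraries and 244, 238 and 221 FPKM in control libraries. Ube2d1, of a family that serves a very wide range of RING ligases, had 132, 147 and 137 FPKM in knockout libraries and 149, 145 and 161 FPKM in control libraries. Its relative Ube2d3 had 120, 118 and 94.5 FPKM in knockout libraries and 113, 119 and 97.5 FPKM in control libraries. The knockout and control ranges of Ube2b, Ube2d1 and Ube2d3 overlapped, as did those of the next genes. Ube2l3, which works with HECT and RING-between-RING ligases such as parkin, had 68.0, 68.9 and 67.9 FPKM in knockout libraries and 63.9, 66.7 and 69.5 FPKM in control libraries. Ube2r2, a CDC34 homolog that extends chains with cullin-RING ligases, had 65.1, 63.3 and 60.4 FPKM in knockout libraries and 63.2, 66.8 and 73.7 FPKM in control libraries. Together these 5 genes made up 53.0% to 54.8% of the summed Ube2 FPKM of a library, and Ube2b alone 18.8% to 20.5%.

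**Figure D1:**
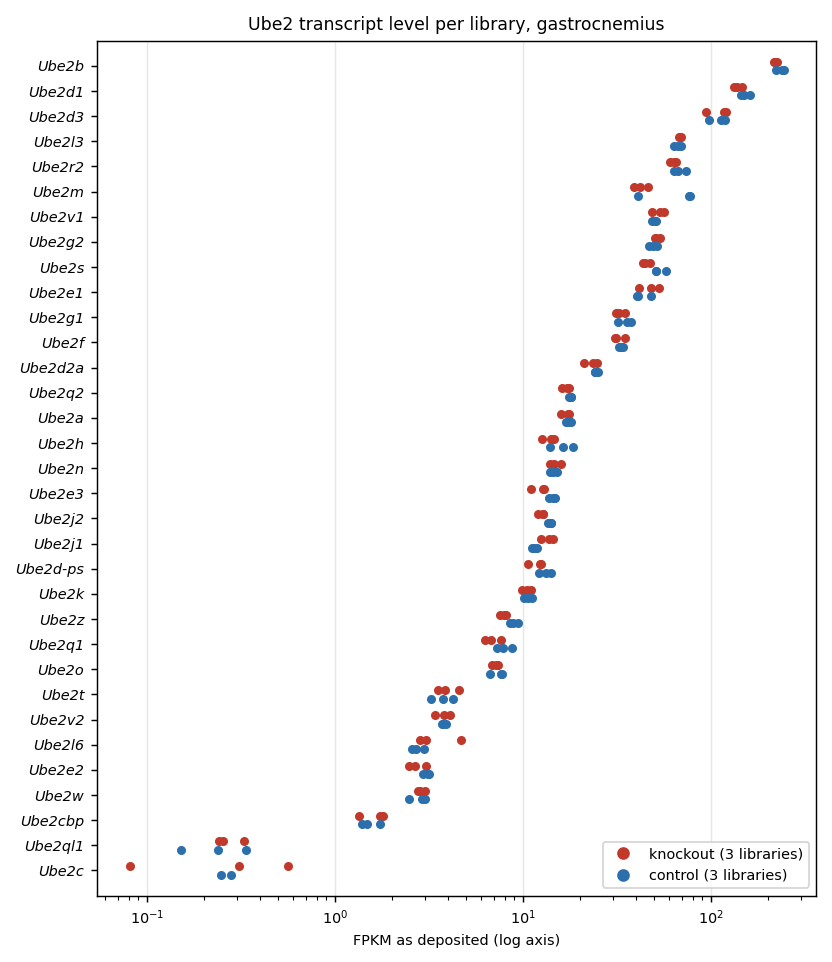
FPKM of 33 tested Ube2 genes in each library on a log axis, genes ordered by their mean over 6 libraries, with knockout libraries (red, upper row of each gene) and control libraries (blue, lower row) as points. Ube2b leads with a mean of 227 FPKM and Ube2c is last with 0.247 FPKM, where 1 control library at 0 is not drawn.

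Close relatives differed in FPKM, widely for Ube2b and Ube2a and much less for Ube2d1 and Ube2d3. Ube2a, the other Rad6 homolog, had a mean of 17.2 FPKM over the 6 libraries, and Ube2b exceeded it 12.5- to 13.5-fold within the knockout libraries and 12.8- to 14.1-fold within the control libraries. The coding sequences of the pair are both 459 bases long and 77.6% identical, and their transcripts share no stretch of 50 bases, so a read of that length matches only Ube2a or only Ube2b. In FPKM, Ube2d1 exceeded Ube2d3 only 1.10- to 1.45-fold in knockout libraries and 1.22- to 1.65-fold in control libraries, at 77.3% identity over 444 coding bases. In CPM, which does not divide by gene length, the order was the reverse. Mean CPM over the 6 libraries was 211 for Ube2d1 and 293 for Ube2d3, so their order depends on the division by length. Ube2d3 shares 16.5% of its 50-base stretches with other genes, so its level could depend on how such reads were assigned. The first 150 coding bases of both pairs, from GENCODE transcripts of GRCm38, are given to show how the copies differ, with differing bases within a pair in capitals. Ube2b (chr11:51995375-52000336, minus strand) and Ube2a (chrX:36874486-36875191, plus strand) differ at 37 of these bases, 30 of them at the last position of a codon. Ube2d1 (chr10:71259790-71285124, minus strand) and Ube2d3 (chr3:135439775-135458827, plus strand) differ at 36, of which 28 are at the last position of a codon; each span covers the introns between the coding pieces.
Ube2b: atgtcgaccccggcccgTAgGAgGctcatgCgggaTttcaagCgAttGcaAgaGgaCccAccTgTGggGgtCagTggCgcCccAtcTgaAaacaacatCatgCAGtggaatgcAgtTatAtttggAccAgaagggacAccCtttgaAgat
Ube2a: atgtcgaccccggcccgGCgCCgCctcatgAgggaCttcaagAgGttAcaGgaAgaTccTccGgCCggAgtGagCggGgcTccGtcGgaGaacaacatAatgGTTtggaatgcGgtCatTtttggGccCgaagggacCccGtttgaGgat
Ube2d1: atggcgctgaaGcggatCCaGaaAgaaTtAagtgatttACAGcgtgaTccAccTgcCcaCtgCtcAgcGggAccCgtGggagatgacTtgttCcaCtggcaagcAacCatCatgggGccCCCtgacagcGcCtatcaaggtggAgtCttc
Ube2d3: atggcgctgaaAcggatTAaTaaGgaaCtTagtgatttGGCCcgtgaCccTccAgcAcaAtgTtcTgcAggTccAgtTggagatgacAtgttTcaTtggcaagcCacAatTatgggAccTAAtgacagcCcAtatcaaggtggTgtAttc

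In mean FPKM over the 6 libraries, 23 tested members reached 10 FPKM and 32 reached 1 FPKM. The 2 below 1 FPKM were Ube2ql1 (0.258 FPKM) and Ube2c (0.247 FPKM), the E2 that starts chains for the anaphase-promoting complex in mitosis. Exons of Ube2c overlap those of Tnnc2 on the opposite strand by 592 bases. Other genes' transcripts hold 5.34% of its 50-base stretches, and the part of such reads in its counts was not tested. Ube2c had 5, 29 and 16 counts in knockout libraries and 0, 15 and 18 counts in control libraries, too few to place its log2 fold change more closely than between -1.52 and 3.18 (95% interval). The 10 proliferating-cell markers were low as well, at 5.91 to 10.5 CPM in sum in knockout libraries and 7.87 to 11.0 CPM in control libraries. Only 5 of these markers were tested, at a median level of 0.395 CPM. Their log2 fold changes were above 0 in 4 and below in 1, with a median of 1.31, and edgeR called 0 of them. Of the 4 Ube2 members that were not tested, Ube2u had 2 counts in knockout library 1 and 0 in the other 5 libraries. Ube2d2b, Ube2dnl1 and Ube2dnl2 had 0 counts in all 6, and the upper limit behind such a 0 (3 counts) is 0.0454 to 0.0598 CPM.

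Against control, knockout muscle showed no called change in any Ube2 gene. With edgeR's quasi-likelihood test and Benjamini-Hochberg adjustment over all 14109 genes, 0 of 34 members passed an adjusted p of 0.05, where 5 genes (0.0354%) were called higher and 3 genes (0.0213%) lower. At an unadjusted p of 0.05 the members numbered 2 (5.88%), Ube2j1 higher and Ube2m lower, against 11.6% of all genes (6.56% higher and 5.07% lower); DESeq2 gave the same 2, and called 0 members. The knockout and control libraries did not overlap in 6 members (17.6%), 3 higher and 3 lower in knockout, against 17.3% of all genes. The first share was below, and the second close to, that of all genes tested.

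Differences between the groups were small. Log2 fold changes were above 0 in 18 members and below 0 in 16, with a median of 0.027, against -0.0037 over all genes; the member median was -0.040 on log2(FPKM + 1) and -0.029 without knockout library 2, so it has no settled sign. The median size of a member's log2 fold change was 0.11, against 0.15 over all genes, and 28 of 34 members (82.4%) lay within 0.2 of 0, against 61.9% of all genes. The members are also more abundant, at a median of 46.9 CPM against 12.7 CPM, and vary less within groups, with a median SD of 0.11 against 0.18 in log2 CPM. For 26 members the 95% interval lay wholly between -0.5 and 0.5 in log2 fold change, and for 31 between -1 and 1.

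**Figure D2:**
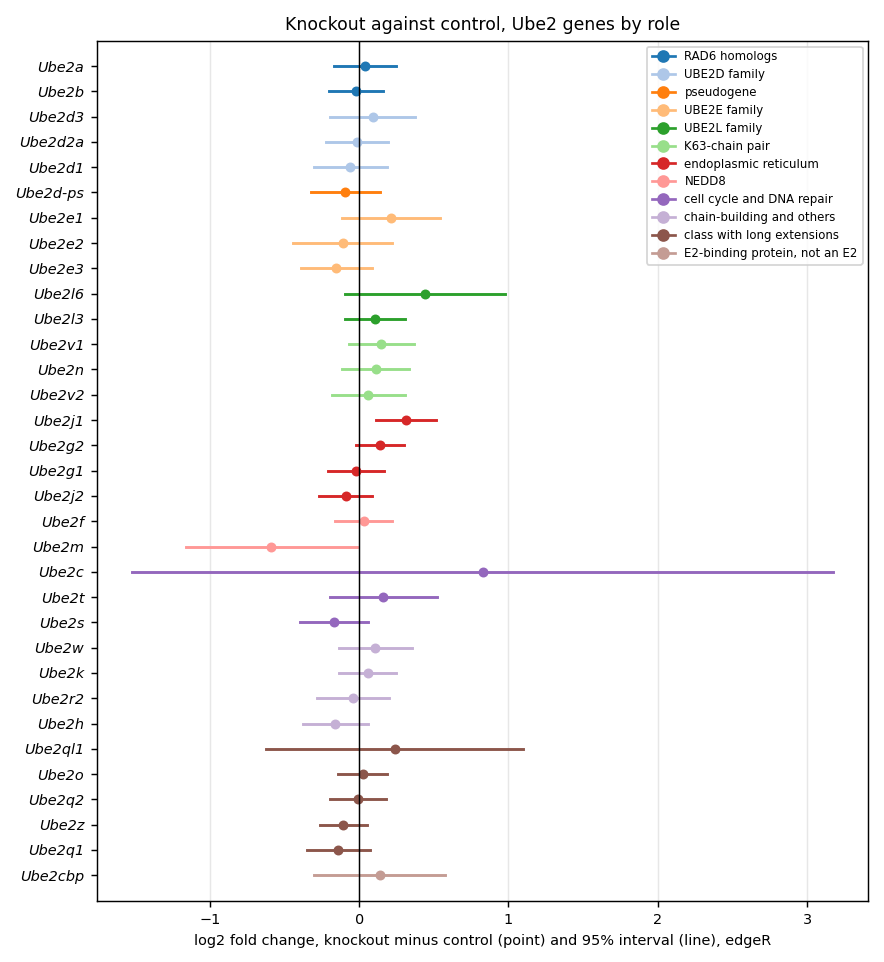
Log2 fold change of knockout minus control for 33 tested Ube2 genes (points) with 95% intervals (lines) from edgeR, coloured and ordered by role. The intervals of Ube2j1 (0.11 to 0.51) and Ube2m (-1.16 to -0.016) leave out 0, and that of Ube2c is the widest.

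Among the endoplasmic reticulum E2s, which mark misfolded proteins for degradation, Ube2j1 had the smallest p of the family. This enzyme is anchored in the reticulum membrane by its tail. It was 51.8, 52.2 and 44.9 CPM in the knockout libraries and 41.3, 38.2 and 40.5 CPM in the control libraries. Every knockout library was above every control library. Knockout minus control was 0.31 in log2 (SE 0.086; edgeR adjusted p = 0.321), and it stayed between 0.27 and 0.38 when any 1 library was left out. Ube2g2, a soluble E2 that works with the membrane ligase gp78, was 103, 108 and 107 CPM in knockout libraries and 95.8, 97.1 and 96.3 CPM in control libraries, again without overlap but by 0.14 (SE 0.069; edgeR adjusted p = 0.499). In FPKM the Ube2g2 groups overlapped, with 51.1, 50.2 and 53.3 FPKM in knockout libraries and 49.1, 51.5 and 47.0 FPKM in control libraries. The other E2s put in this group, Ube2g1 (-0.019) and the membrane-anchored Ube2j2 (-0.091), were on the other side of 0. For Ube2g1 the sign was not settled, at 0.029 without knockout library 3.

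The Ube2j1 promoter is shown because the gene had the smallest p of the family. The RefSeq window of GRCm38.p6 runs from 250 bases before to 50 bases after the start site (chr4:33031130-33031429, plus strand) and is 78.7% G and C. It holds, on its minus strand, the letters TGACGTGG of the unfolded protein response element, marked in capitals as CCACGTCA and beginning 68 bases before the start site. Those letters occur, on either strand, in 0.599% of 27025 mouse promoters and in 1 of the 31 Ube2 promoters in the table. These shares are not matched for base composition. The letters hold a CG dinucleotide, and the window has 52 of these, against medians of 27 in Ube2 promoters and 7 in all. The match overlaps the shorter motif CCACG, which occurs in 32.7% of all promoters and in 13 of the 31. The longer stress element ERSE-I and the letters TGTTTAC bound by FoxO factors were in 0 of the 31, and in 0.130% and 3.52% of all promoters.
Ube2j1: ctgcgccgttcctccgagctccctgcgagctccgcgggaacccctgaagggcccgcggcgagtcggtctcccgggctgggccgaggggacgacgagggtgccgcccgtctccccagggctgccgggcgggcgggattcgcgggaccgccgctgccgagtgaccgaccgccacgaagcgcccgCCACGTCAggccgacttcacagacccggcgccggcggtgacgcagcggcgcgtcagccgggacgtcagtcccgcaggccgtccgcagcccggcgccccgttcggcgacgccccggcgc

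Of the E2s for ubiquitin-like proteins, Ube2m had the lowest log2 fold change of the family, and its control libraries were far apart. Ube2m loads NEDD8 onto cullins, which switches on cullin-RING ligases. It was 53.7, 52.9 and 56.9 CPM in knockout libraries and 96.6, 49.2 and 100.3 CPM in control libraries. The knockout libraries lay close together, while control library 2 was below all of them and control libraries 1 and 3 were well above. Knockout minus control was -0.59 in log2 (SE 0.25; edgeR adjusted p = 0.416), with -0.46 without control library 1, -0.86 without control library 2 and -0.42 without control library 3. Its transcripts share 0.18% of their 50-base stretches with any other gene, and its exons overlap no other gene.

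Ube2f, the second NEDD8 E2, was level, at 45.8 ± 2.3 CPM in knockout and 44.9 ± 2.8 CPM in control (SD, n = 3 each; log2 fold change 0.030). Ube2z, which carries FAT10 as well as ubiquitin from the E1 Uba6, was 32.0, 32.5 and 33.0 CPM in knockout libraries and 34.4, 35.8 and 34.8 CPM in control libraries, a log2 fold change of -0.11 (SE 0.067; edgeR adjusted p = 0.585). Here the groups were apart by a small step.

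Ube2l6, the E2 for ISG15, was 4.02, 7.06 and 4.31 CPM in knockout libraries and 3.51, 3.95 and 3.86 CPM in control libraries. The groups did not overlap, and knockout library 2 was well above the rest. With all libraries knockout minus control was 0.44 in log2 (SE 0.23; edgeR adjusted p = 0.512), and without that one it was 0.14. The same library had 1011 CPM of erythroid markers in sum, against 191 and 274 CPM in the other knockout libraries and 197 to 248 CPM in control libraries, with 8 of 9 markers in the table. Interferon-response markers, 12 of 12 tested, summed to 97.5 to 113 CPM in knockout libraries and 97.9 to 105 CPM in control libraries. The part of either in the Ube2l6 values was not tested.

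**Figure D3:**
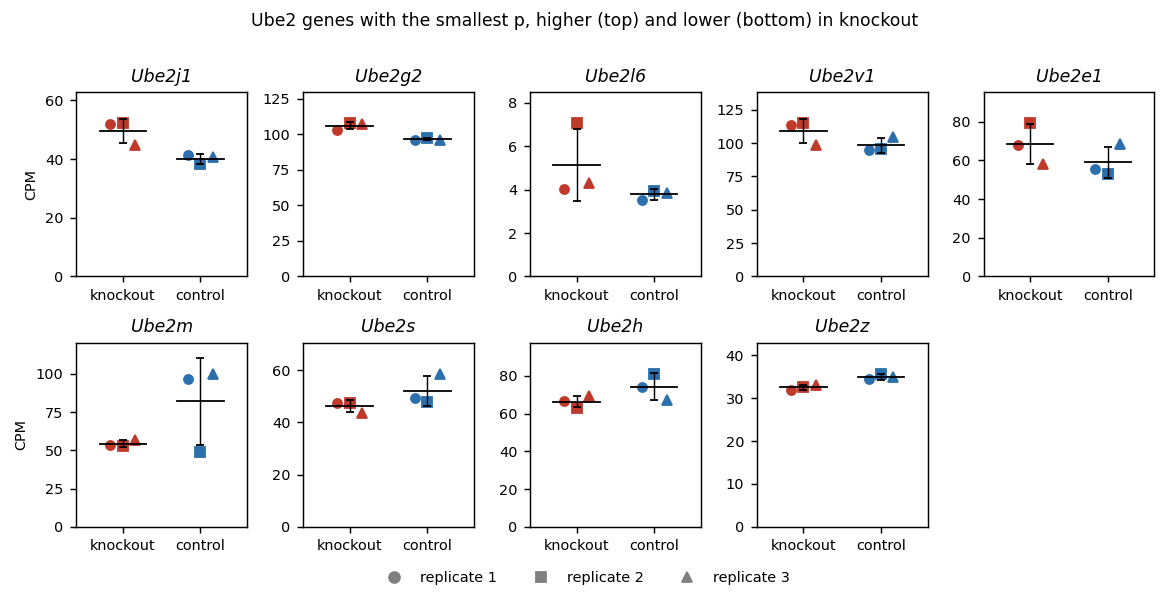
CPM of 9 Ube2 genes among those with the smallest edgeR p in each direction, 5 higher (top) and 4 lower (bottom) in knockout, for 3 knockout libraries (red, left) and 3 control libraries (blue, right), with horizontal bars for group means and vertical bars for the SD. Ube2j1 and Ube2g2 have all knockout libraries above all control libraries, Ube2l6 has knockout library 2 apart, and Ube2m has control library 2 below the knockout libraries and the other control libraries above them.

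The E2s that build chains for signalling and DNA repair, Ube2n with its catalytically inactive partners Ube2v1 and Ube2v2, all had log2 fold changes above 0 in counts. Ube2v1 was 113, 115 and 98.5 CPM in knockout libraries and 94.6, 95.2 and 104.9 CPM in control libraries, and the groups overlapped (0.15, SE 0.092; edgeR adjusted p = 0.582). The Ube2v1 counts are uncertain, since 82.4% of its 50-base stretches occur in other genes' transcripts, 73.7% in the readthrough gene Gm20431. Ube2n (0.11) and Ube2v2 (0.062) also overlapped between groups, and Ube2v2 was -0.011 on log2(FPKM + 1).

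Ube2e1, of a family with an N-terminal extension, was 67.8, 79.3 and 58.3 CPM in knockout libraries and 55.8, 53.2 and 68.4 CPM in control libraries. The groups overlapped broadly (0.21, SE 0.14; edgeR adjusted p = 0.612), and Ube2e1 shares 49.3% of its 50-base stretches with Nkiras1, a gene on the opposite strand whose exons overlap it by 718 bases. Its relatives Ube2e2 (-0.11) and Ube2e3 (-0.15) lay below 0, also with overlapping CPM.

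Of the cell cycle and repair E2s, Ube2s, which lengthens chains on the anaphase-promoting complex, was 47.5, 47.6 and 43.6 CPM in knockout libraries and 49.4, 47.9 and 58.7 CPM in control libraries. The groups did not overlap, but knockout library 2 and control library 2 were nearly equal; knockout minus control was -0.17 in log2 (SE 0.098; edgeR adjusted p = 0.553), and -0.074 without control library 3. Ube2s exons, over all GENCODE transcripts, overlap those of Rpl28 on the opposite strand by 183 bases. The Ube2s transcript matched to RefSeq shares 0% of its 50-base stretches with other genes' transcripts. Whether counting used the strand is not given in the sources used here. Ube2t, the E2 of the Fanconi anaemia pathway, was 4.69 ± 0.515 CPM in knockout and 4.19 ± 0.508 CPM in control (SD, n = 3 each; log2 fold change 0.16).

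Ube2h, an E2 of erythroid maturation and of the CTLH ligase, was 66.5, 63.2 and 69.3 CPM in knockout libraries and 74.2, 81.3 and 67.0 CPM in control libraries, with knockout library 3 above control library 3 (-0.16, SE 0.093; edgeR adjusted p = 0.554). The 5 most abundant members lay near 0: the log2 fold changes were -0.020 (SE 0.078) for Ube2b, -0.059 (SE 0.11) for Ube2d1, 0.090 (SE 0.12) for Ube2d3, 0.10 (SE 0.087) for Ube2l3 and -0.041 (SE 0.10) for Ube2r2. Their edgeR adjusted p values were between 0.679 and 0.941. The 95% interval for Ube2b ran from -0.20 to 0.16. The other members tested were Ube2a (0.040), Ube2d2a (-0.015), Ube2k (0.057), Ube2w (0.11), Ube2o (0.023), Ube2q1 (-0.14), Ube2q2 (-0.0098), Ube2ql1 (0.24), Ube2d-ps (-0.092) and Ube2cbp (0.14) in log2 fold change, all with overlapping groups.

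For single members, the exact two-sided permutation test of 3 against 3 libraries can go no lower than p = 0.1, and it gave that value for the 6 members whose groups did not overlap and 0.4 for Ube2m. The direction of a difference of this size depended in part on the scale. In FPKM the groups did not overlap in 7 members, with Ube2j1 above in knockout and 6 below, among them Ube2e3, Ube2j2, Ube2q2, Ube2s and Ube2z. Over all genes the groups in FPKM were apart upward in 4.42% and downward in 15.7%, against 8.38% and 8.87% in CPM.

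The pool as a whole showed the same dependence. Summed Ube2 FPKM was 1133, 1125 and 1070 in knockout libraries and 1187, 1161 and 1176 in control libraries, or 1109 ± 34.4 and 1175 ± 12.7 (SD, n = 3 each), with every knockout library below every control library. Without Ube2m the sums were 1067 ± 37.5 in knockout and 1110 ± 10.3 in control. As a share of all FPKM in a library, the Ube2 genes made up 0.230%, 0.230% and 0.221% in knockout libraries and 0.240%, 0.241% and 0.229% in control libraries, and these overlapped. In CPM the sums were 2614, 2745 and 2448 in knockout libraries and 2604, 2521 and 2676 in control libraries, and they overlapped. A lower Ube2 pool without overlap was therefore seen in summed FPKM only, and not in the share of FPKM or in CPM.

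**Figure D4:**
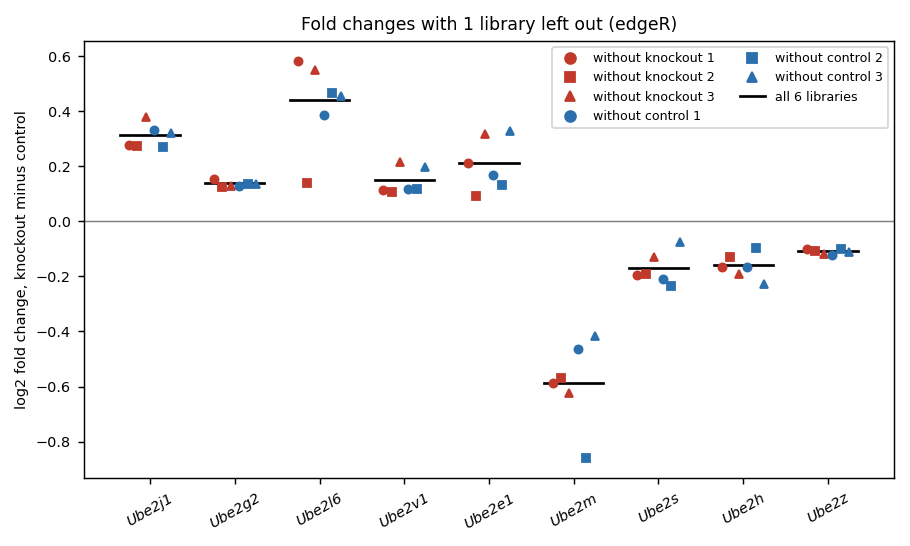
Log2 fold change (knockout minus control, edgeR) of the same 9 Ube2 genes with all 6 libraries (black bar) and with each library left out in turn (red symbols for a knockout library left out, blue for a control library). All points keep the sign of their bar, Ube2l6 is at 0.14 without knockout library 2, and Ube2m spans -0.86 to -0.42.

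The partners of these enzymes were tested from 9 lists, and of 85 genes tested 0 were called by edgeR. Of the 85, 6 had an unadjusted edgeR p under 0.05, a smaller share than the 11.6% of all genes. DESeq2 called 0 of the partners named here. The 12 modifier genes as a list were 5 above and 7 below 0, with a median of -0.018. Isg15, the protein that Ube2l6 carries, was 1.70, 1.47 and 1.19 CPM in knockout libraries and 1.16, 1.05 and 0.908 CPM in control libraries (0.49, SE 0.25; edgeR adjusted p = 0.509).

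Among 9 E1 genes tested, 5 were above and 4 below 0, with a median of 0.029. Uba7, the E1 that charges Ube2l6 with ISG15, was 3.60, 4.76 and 5.24 CPM in knockout libraries and 5.98, 7.93 and 7.46 CPM in control libraries. The groups did not overlap, at a log2 difference of -0.66 (SE 0.18; edgeR adjusted p = 0.321). Of these 3 genes of the ISG15 route, Uba7 was below 0 and Ube2l6 and Isg15 above, none of them past the threshold. Uba2, the SUMO E1 subunit, was at -0.14 (SE 0.067; edgeR adjusted p = 0.473).

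The E3 partners lay on both sides of 0. Of the 6 ligase genes that work with Ube2a and Ube2b, 5 were above 0 (median 0.095), and Ubr2, which reads N-degrons, was 172, 175 and 191 CPM in knockout libraries and 159, 156 and 145 CPM in control libraries (0.23, SE 0.082; edgeR adjusted p = 0.379); Rnf20, the H2B ligase, was at 0.12. Of the 8 at the endoplasmic reticulum, 3 were above and 5 below 0 (median -0.039), with Syvn1, the reticulum ligase HRD1, at 0.17 and Rnf145 at -0.25. Of 16 genes of the anaphase-promoting complex, 6 were above and 10 below 0 (median -0.033), with the activator Fzr1 at -0.18 and the subunit Cdc23 at -0.16. Among 8 E2-type genes with other symbols, 5 were above and 3 below 0 (median 0.021), with Tsg101, an inactive E2 variant of endosomal sorting, at 0.19 and Birc6, a giant E2 and E3 hybrid, at 0.14.

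On the NEDD8 side, where Ube2m acts, 2 of 7 genes were above 0 and 5 below (median -0.039). Dcun1d4, of a family that helps load NEDD8 on cullins, was 11.1, 11.4 and 11.6 CPM in knockout libraries and 12.7, 13.6 and 14.4 CPM in control libraries (-0.25, SE 0.090; edgeR adjusted p = 0.370), and its relative Dcun1d3 was at 0.15. Of 7 SUMO ligase genes, 2 were above and 5 below 0 (median -0.10), with Ranbp2 at 0.22 and Pias3 at -0.24. Of the 12 partners of Ube2n, 5 were above and 7 below 0 (median -0.026), with Chfr at -0.15. Traf2, a signalling ligase of that list, was 11.9, 13.9 and 13.8 CPM in knockout libraries and 21.6, 14.0 and 21.5 CPM in control libraries (-0.53, SE 0.18; edgeR adjusted p = 0.363). Its control library 2 lay next to the knockout libraries, as for Ube2m.

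**Figure D5:**
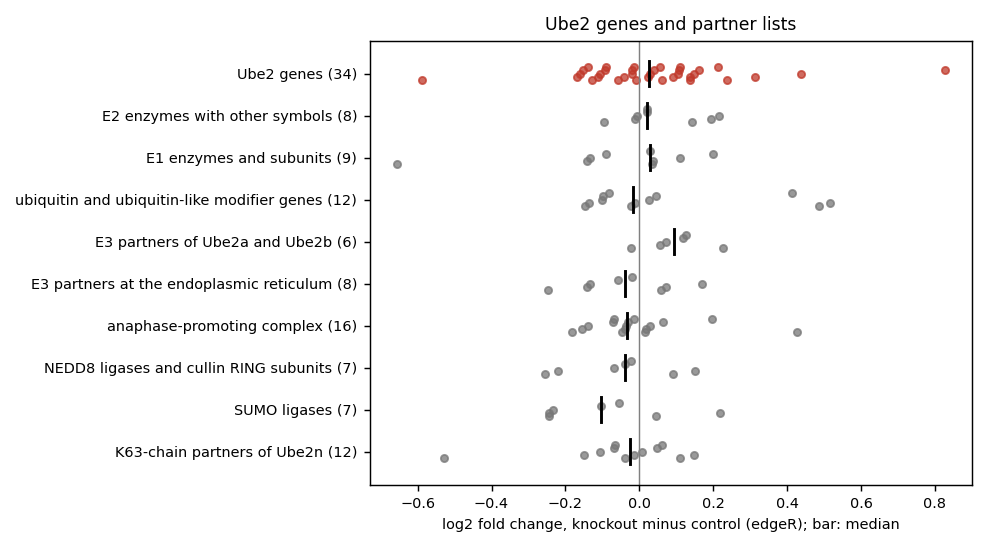
Log2 fold change (knockout minus control, edgeR) of the 34 tested Ube2 genes (red) and of each list of partner genes (grey, number tested in brackets), with a vertical bar at the list median. The list medians lie between -0.10 and 0.095, and no gene shown passed the adjusted threshold in edgeR.

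In the RefSeq table for GRCm38.p6 the 38 members lay on 16 chromosomes. By the exons of all GENCODE transcripts, 28 overlapped no exon of another gene. Exons of 5 members overlapped a protein-coding gene on the opposite strand, namely Ube2c, Ube2d-ps, Ube2e1, Ube2l3 and Ube2s. The only members that shared a 50-base stretch with each other were Ube2dnl1 and Ube2dnl2, while 17 shared at least 5% of theirs with some other gene. Counts of those 17 could depend on how such reads were assigned. Among them were Ube2h (45.8%), Ube2d3 (16.5%), Ube2l3 (16.4%), Ube2l6 (11.3%) and Ube2g2 (5.90%), while Ube2j1, Ube2b, Ube2d1 and Ube2r2 shared 0%. Promoters of the 31 members in the table had a median G and C content of 64.0%, against 52.7% over all 27025 promoters.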

How the data were processed

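Gene counts are whole numbers that the authors deposited unnormalized, per the file headers. FPKM values (scaled by gene length and depth) and TPM values stand beside them, as deposited by the authors. The submitters' processing notes name mm10, StringTie 1.3.4d, Bowtie2 2.3.4.1, FastQC 0.11.7 and bcl2fastq 2.20.0; how reads were counted, and with which strand setting, is not given in the sources used here. Libraries came from a kit that keeps the strand, per the labels' protocols.

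Counts of all genes were filtered (filterByExpr, minimum count 10), scaled by TMM and tested, knockout against control, with edgeR 4.0.16 in R 4.3.3 (quasi-likelihood, Benjamini-Hochberg, threshold 0.05). The steps were tested on simulated counts in which randomly drawn genes were changed. At an adjusted p of 0.05, edgeR called 22.4% of genes changed 1.5-fold, 77.3% of those changed 2-fold and 97% of those changed 4-fold. There were 7 false calls. Most simulated 1.5-fold changes were therefore missed, and the absence of a call does not exclude a change of that size. CPM use TMM factors, log2 CPM a prior count of 2. Floors of counts cover counting error only. The test gives no standard error, so each SE was derived as the size of the log2 fold change divided by the square root of the edgeR F statistic. Intervals of log2 fold changes were built from these SEs with the t distribution. They also take in the spread among libraries of a group. Litters are not matched to animals in the labels, and p-values reflect the spread among these 6 libraries. Libraries of a group differed beyond sampling noise, with chi-square at least 35.0 per degree of freedom.

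Members, roles and lists were chosen with earlier results of these data known. Genes named with all values were the 5 smallest p in each direction and the 5 highest mean FPKM; of each partner list, the members past the threshold or else the 2 smallest p; 0 columns of other samples were present. The values of 2 genes are not reported here. Alternatives were DESeq2 1.42.0, limma 3.58.1 (voom, or log2 FPKM with a pseudocount of 1 or 0.1), other scalings, no filter, a threshold of 0.1, a replicate block, TPM for the order of levels, and leaving out each library. DESeq2 gave 280 genes, 0 of them members, no adjusted p. Sequences were read with Biopython 1.88 from RefSeq promoters and GENCODE transcripts; 8 motifs were searched on both strands.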

Additional observations from a re-analysis of the deposited data

How the results depend on the processing

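No Ube2 gene passed an adjusted p of 0.05 in any alternative run, nor 0.1 in edgeR with all libraries. Ube2j1 was under 0.1 with DESeq2 (0.0972) and in edgeR without knockout library 3 (0.0919). Over all genes 8 were called; DESeq2 called 290, limma-voom 5, limma on log2(FPKM + 1) 1 and on log2(FPKM + 0.1) 1, and leaving out a library gave 1 to 141 (141 without knockout library 3). Members at an unadjusted p under 0.05 numbered 2; they were 1 with voom, 4 on log2(FPKM + 1) and 4 on log2(FPKM + 0.1) (Ube2e3, Ube2j1 and Ube2s among them), and 1 to 3 with a library left out. Ube2j1 was among them in every fit. Ube2m was not with voom, on either FPKM scale, with the block, or with any library but control library 2 left out. Replicate numbers did not pair the libraries (correlations of -0.0082, -0.19 and -0.098); a replicate block gave 0 called genes and 1 member at an unadjusted p under 0.05. The member median stayed between -0.029 and 0.063 with a library left out. Signs turned on log2(FPKM + 1) and log2(FPKM + 0.1) for Ube2a (-0.031, -0.033), Ube2f (-0.039, -0.040), Ube2k (-0.014, -0.015), Ube2o (-0.042, -0.047) and Ube2v2 (-0.011, -0.014). With a library left out, signs turned for Ube2a (-0.017 to 0.095), Ube2b (-0.050 to 0.0085), Ube2d1 (-0.14 to 0.019), Ube2d2a (-0.062 to 0.060), Ube2f (-0.012 to 0.083), Ube2g1 (-0.053 to 0.029), Ube2o (-0.0099 to 0.045), Ube2q2 (-0.069 to 0.036), Ube2r2 (-0.10 to 0.057) and Ube2v2 (-0.040 to 0.15). The cause was not tested. With a library left out, 28 to 30 of the 35 detected members kept their place in the order of FPKM levels; by TPM, which rescales FPKM within a library, 35 did. Depth limits Ube2c, Ube2u and the members at 0 counts.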

Other observations

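Within groups, the Ube2 genes ranked the libraries unevenly. Of the knockout libraries, library 2 was the highest in CPM for 21 of 34 members (61.8%, against 33.0% of all genes), and library 3 was the lowest for 20 (58.8%, against 37.7%). Of the control libraries, library 3 was the highest for 17 members (50%, against 38.4%) and library 2 the lowest for 15 (44.1%, against 33.1%). In summed Ube2 FPKM the highest libraries were others, knockout library 1 (1133, against 1125 in library 2) and control library 1 (1187, against 1176 in library 3). The lowest sums were again those of knockout library 3 and control library 2. The members are not independent of each other, so these shares carry no test.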
